A study of Macaca fascicularis with 64 samples.

Results

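The 9 genes described here encode the proteins that carry retinol in blood, take it into cells, turn it into retinoic acid and read it out in the nucleus: TTR and RBP4 (carriers), STRA6 (uptake receptor), ALDH1A1 (retinaldehyde dehydrogenase), RARA and RARB (retinoic acid receptors), and RXRA, RXRB and RXRG (retinoid X receptors). They were chosen by name, and all 9 were found among the 21041 macaque genes of the deposited tables. The study sequenced single islet cells of 16 cynomolgus monkeys (Macaca fascicularis) without diabetes, 8 young (Y, 4 to 6 years) and 8 old (O, 18 to 21 years), each age group with 4 females and 4 males, to learn how the 4 endocrine cell types differ and change with age. Each monkey gave 4 libraries, 64 in all, and no animal was treated or genetically altered. Each monkey was collected on a day of its own, so monkey and day cannot be told apart. Counts were unique molecular identifiers (UMIs), with each RNA molecule tagged and counted once.

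Retinol is released from the liver bound to RBP4, which circulates in a complex with transthyretin, the product of TTR. STRA6 binds circulating RBP4 and passes retinol across the membrane. In the cell, retinol dehydrogenases form retinaldehyde, and ALDH1A1 and its relatives oxidise it to retinoic acid, the ligand of the RARs. RARs bind DNA as heterodimers with an RXR, and RXRs also pair with thyroid hormone, vitamin D, PPAR and liver X receptors. Transthyretin also carries thyroid hormone and is made in islet endocrine cells, where it has been linked to hormone release.

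Of 6141 deposited cells, 5908 had over 800 genes and over 10000 UMIs, and each was typed by the highest of GCG (glucagon), INS (insulin), SST (somatostatin) and PPY (pancreatic polypeptide). This gave 4503 α-cells, 1219 β-cells, 112 δ-cells and 74 PP-cells. Monkeys were the replicates, and UMIs were summed per monkey and type where at least 5 cells were present, which left 16 monkeys for α-cells, 16 for β-cells, 11 for δ-cells (7 young, 4 old) and 6 for PP-cells (2 young, 4 old). The sums held between 14089079 and 27439498 UMIs for α-cells but only 206257 to 706643 for δ-cells, so a sparse gene rests on few molecules in δ-cells. Levels are UMIs scaled to 1e+06 UMIs of macaque genes per sum (CPM). The types carried their own markers besides the hormone: the summed α-cell markers other than GCG had a median of 4952 CPM in α-cells and 669 in β-cells, and the δ-cell markers other than SST had a median of 1526 CPM in δ-cells and 47.0 in α-cells. GCG UMIs were found in 100% of the cells of all 4 types, with a mean of 22849 CPM in β-cells against 76263 in α-cells, and INS UMIs likewise in 100%. The libraries shared 96 cell barcodes, and no 2 cells had identical counts.

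Of the 9 genes, TTR, ALDH1A1, RBP4 and RXRG differed between endocrine types. TTR and ALDH1A1 were highest in α-cells, RBP4 in δ-cells and RXRG in β-cells. The 112 δ-cells held 39517 of the 49988 RBP4 UMIs of all cells, and the 4503 α-cells held 9254. RARA, RARB and RXRB were not called in any type, and STRA6 and RXRA were too low to be tested. In the comparison of each type with the mean of the other 3 (edgeR, adjusted p below 0.05 over 12899 genes), 4 of the 7 members tested were called in α-cells (background 21.2% of all genes), 4 in β-cells (26.4%), 3 in δ-cells (15.6%) and 4 in PP-cells (8.23%). Each type entered the reference of the other types, so the 4 comparisons are not independent of each other. The median log2 difference of all genes was 0.34 in α-cells, 0.20 in β-cells, -0.27 in δ-cells and -0.16 in PP-cells, and member values are to be read against these medians. With DESeq2 scaling these medians were 0.17, -0.03, -0.07 and -0.005, and the share of called genes that were higher went from 84.6% to 69.2% in α-cells and from 66.0% to 45.5% in β-cells, while no called member changed direction.

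**Figure D1:**
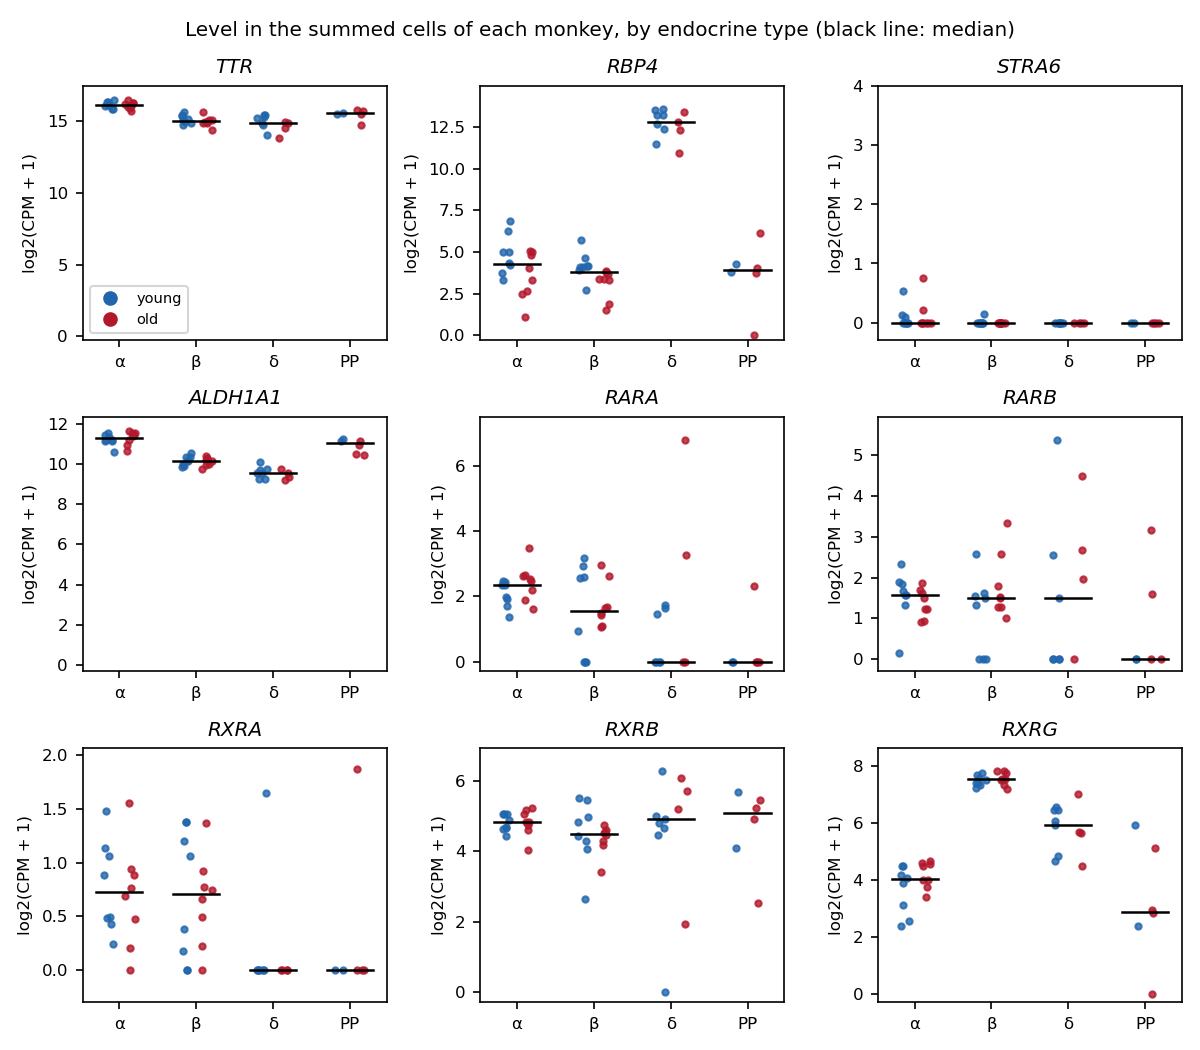
Level of each of the 9 genes as log2(CPM + 1) in the summed cells of each monkey, by endocrine type (16, 16, 11 and 6 monkeys; blue young, red old; black line, median over monkeys). RBP4 stands apart in δ-cells and RXRG in β-cells, TTR and ALDH1A1 are high in all types and highest in α-cells, and STRA6 lies at or near 0.

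TTR was among the most abundant transcripts of the islet, with UMIs in 5908 of 5908 cells. In α-cells its lowest, median and highest level over 16 monkeys was 54873, 72013 and 93436 CPM. In β-cells these were 21211, 33443 and 52044 CPM. Every α-cell sum lay above every β-cell sum. In δ-cells TTR ran from 14432 through 31049 to 44388 CPM over 11 monkeys, and in PP-cells from 27437 through 48284 to 56828 CPM over 6. The β- and δ-cell ranges overlapped, and PP-cells lay between α- and β-cells, overlapping both. Against the mean of the other types TTR was higher in α-cells by 0.99 ± 0.06 (log2 fold change ± SE, edgeR adjusted p = 2.3e-18) and lower in β-cells by 0.46 ± 0.06 (log2 -0.46, adjusted p = 1.8e-07) and in δ-cells by 0.89 ± 0.08 (log2 -0.89, adjusted p = 3.6e-13). All 6 pairs of types were called for TTR, in the order α, PP, β and δ, but some neighbours in this order did not hold elsewhere. The δ- and β-cell difference (log2 -0.32) was lost with DESeq2 (log2 -0.08, adjusted p = 0.62) without the monkey term (adjusted p = 0.14) and with at least 10 cells per sum (adjusted p = 0.15), the PP- and α-cell difference (log2 -0.47) was lost with DESeq2 (log2 -0.30, adjusted p = 0.12), and the PP- and β-cell difference (log2 0.62) was lost without the monkey term (adjusted p = 0.054). The PP-cell value, 0.36 ± 0.09 (adjusted p = 0.0082), was not stable: it was 0.18 without the monkey term and 0.09 with cells thinned to 10000 UMIs, neither called, and it lost its call when old female 2, old male 2, old male 4 or young male 4 was left out (0.23 to 0.29).

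TTR was also set against GCG in the same cells. GCG chose the types, so these ratios are given without a test. In α-cells there were 0.768, 0.968 and 1.14 TTR UMIs per GCG UMI (lowest, median and highest of 16 monkeys). In β-cells there were 1.05, 1.57 and 2.34, above the α-cells of the same monkey in 16 of 16. In δ-cells the ratio ran from 0.882 through 1.19 to 1.74, above α-cells in 11 of 11 monkeys, and in PP-cells from 0.970 through 1.42 to 2.35, above in 6 of 6. TTR per GCG UMI was thus higher in β-, δ- and PP-cells, but typing by GCG itself lowers this ratio in α-cells. The 15 retained cells with immune markers held 27998 CPM of TTR and 31597 of GCG, a pooled ratio of 0.886. The 26 cells with stellate markers had a ratio of 1.11. All of these kept the type of their highest hormone, and whether they made either gene was not tested. The part of RNA from other cells in the TTR of each type was not tested. Against the summed α-cell markers other than GCG the ratio was 15.5 in α-cells and 61.4 in β-cells (medians over 16 monkeys), but it was also 47.5 in the immune-marked cells. Those markers were listed as α-cell genes, which also lowers the ratio in α-cells. Cell by cell, TTR varied with GCG within α-cells (median r = 0.93 over the cells of each of 16 monkeys, lowest 0.71, highest 0.97) and within β-cells with both GCG (median r = 0.77) and INS (median r = 0.79) in 15 monkeys with 20 cells or more. These are values across cells of 1 library set that share depth, and hormone and TTR UMIs are both large parts of each total.

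**Figure D2:**
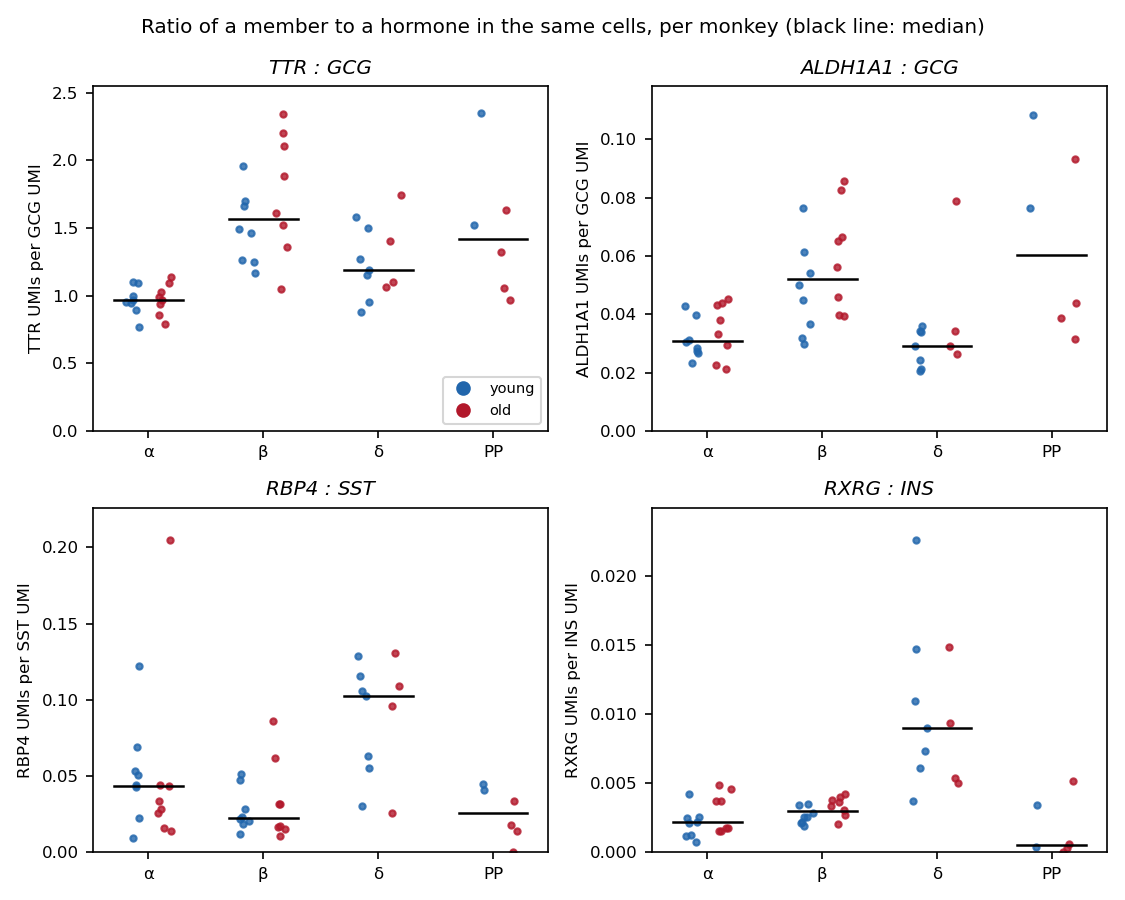
UMIs of TTR and ALDH1A1 per GCG UMI, of RBP4 per SST UMI and of RXRG per INS UMI in the summed cells of each monkey, by type (blue young, red old; black line, median). TTR per GCG was higher in β-cells than in α-cells of the same monkey in 16 of 16 monkeys, and RXRG per INS was higher in δ-cells than in β-cells in 11 of 11. The hormones also chose the types, which lowers each ratio in the type of its hormone.

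RBP4, the plasma retinol-binding protein, was the member with the widest range between types. In δ-cells it ran from 1966 through 7273 to 12205 CPM over 11 monkeys. In α-cells it ran from 1.18 through 18.5 to 115 CPM, in β-cells from 1.89 through 13.2 to 51.9 CPM, and in PP-cells from 0 through 14.1 to 71.2 CPM. The lowest δ-cell sum was above the highest sum of any other type, and the other 3 types overlapped. RBP4 was higher in δ-cells than in the mean of the other types by 8.27 ± 0.26 on the log2 scale, 309-fold (edgeR adjusted p = 5.6e-31). It was called lower in the other 3 types, as each had δ-cells in its reference. Between α- and β-cells it was lower in β-cells by 0.62 ± 0.22 (log2 -0.62, adjusted p = 0.034), a call that was lost with DESeq2 (adjusted p = 0.051), without the monkey term (0.061) and where the highest hormone had to be 4 times the next (0.15). It was also lost without cells above the 95th percentile of UMIs (0.077) and when old female 2, old male 3, young female 1, young female 2 or young male 2 was left out (0.059 to 0.096).

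Not every δ-cell carried RBP4. Of 112 δ-cells, 83 (74.1%) were at or above 1000 CPM, 8 lay between 100 and 1000 CPM, and 21 were below 100 CPM, of which 12 had no RBP4 UMI. These δ-cells low in RBP4 came from few animals. Young male 3 had 8 such cells of its 14, old male 4 had 6 of 10, old female 1 had 4 of 7, old female 2 had 2 of 11 and old female 4 had 1 of 4, while the other 10 monkeys with δ-cells had none. Low cells and cells above 1000 CPM occurred together in 2 of 2 libraries with low cells in young male 3, 2 of 2 in old female 1, 1 of 1 in old female 2, 2 of 3 in old male 4 and 0 of 1 in old female 4. All δ-cells were chosen by SST as their highest hormone, so cells poor in SST could not be among them. Within that limit the median SST of the low cells was 100466 CPM against 93654 in the 83 high cells. Their median depth was 55334 UMIs against 46280. HHEX, a transcription factor of δ-cell identity, had UMIs in 12 of the 21 low cells and in 71 of the 83 high cells. Among the 5796 cells of other types, 11 reached 1000 CPM of RBP4.

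The low RBP4 of the other cells followed the δ-cells of the same library. In the 19 libraries with no δ-cell, RBP4 in the other cells had a median of 1.41 CPM (highest 12.3). In the 19 with 1 δ-cell the median was 7.32 CPM (highest 60.5), and in the 26 with 2 or more it was 31.4 CPM (highest 303). Libraries without a δ-cell thus lay at the bottom of the range, with some overlap. SST in the same cells was ordered alike, with medians of 47.0, 343 and 1146 CPM. The share of other cells with an RBP4 UMI had medians of 3.33%, 25.3% and 75.4% in the 3 groups of libraries. There were 0.0433 RBP4 UMIs per SST UMI in α-cells and 0.0225 in β-cells (medians of 16 monkeys) against 0.102 in δ-cells (11 monkeys). The ratio in β-cells was below that in δ-cells in 11 of 11 monkeys, and in α-cells in 9 of 11. Over all cells, 36.7% of α-cells held an RBP4 UMI (95% Clopper-Pearson interval 35.3 to 38.1%, median depth 68716 UMIs), 35.1% of β-cells (32.4 to 37.9%, 78172 UMIs) 6 of the 15 immune-marked cells (40%, 16.3 to 67.7%, 35749 UMIs) and 4 of the 26 stellate-marked cells (15.4%, 4.36 to 34.9%). The stellate-marked cells had a median depth of 42630.5 UMIs. An RBP4 UMI was also in 23 of 47 acinar-marked cells (48.9%, 34.1 to 63.9%), 7 of 14 endothelial-marked cells (50%, 23.0 to 77.0%) and 2 of 6 ductal-marked cells (33.3%, 4.33 to 77.7%). The shares in α- and β-cells lay above the interval of the stellate-marked cells and within those of the other marked classes. They are not read here as expression. Intervals and floors in this text cover counting error only.

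**Figure D3:**
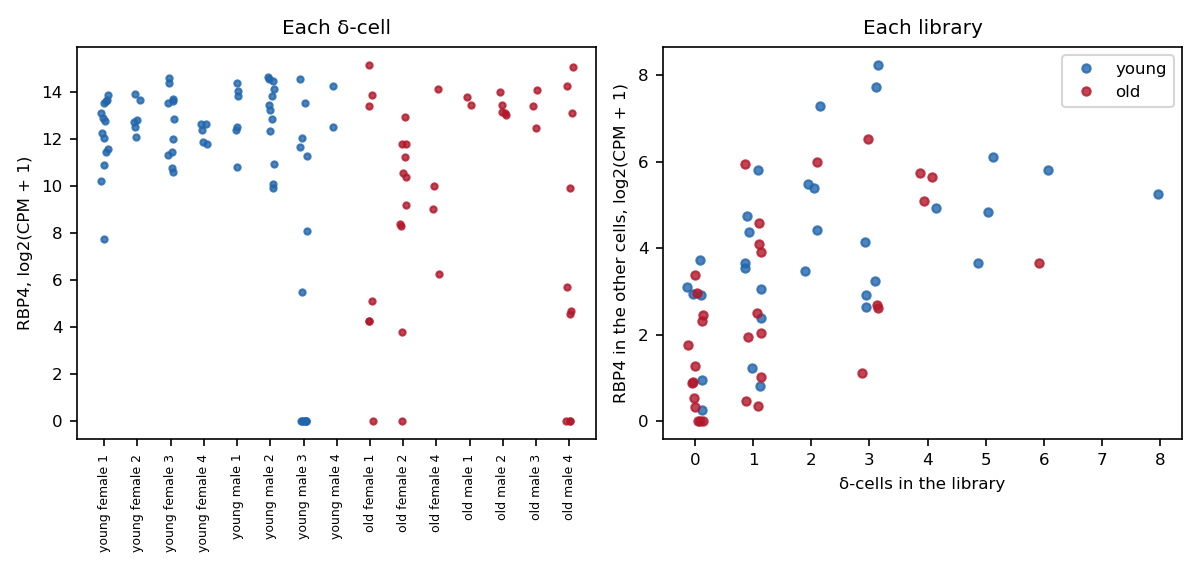
RBP4 as log2(CPM + 1) in each of the 112 δ-cells, by monkey (left), and in the cells of other types of each of the 64 libraries against the number of δ-cells in that library (right); blue young, red old. The δ-cells without RBP4 gather in a few monkeys, and libraries without a δ-cell have a median of 1.41 CPM in their other cells, overlapping those with 1 δ-cell.

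STRA6, the membrane receptor for RBP4, was close to absent from the endocrine cells at this depth. Of 5908 cells, 9 held a STRA6 UMI, 48 UMIs in all. Stellate-cell markers were carried by 3 of these 9 cells, which held 33 of the 48 UMIs, 20 of them in 1 cell. In the 26 cells with stellate markers STRA6 was found in 3 (11.5%, interval 2.45 to 30.2%) at a pooled 18.9 CPM. In α-cells it was found in 7 of 4503 cells (0.155%) at 0.0837 CPM, and in β-cells in 1 of 1219. No δ-cell of 112 had a UMI, and 3 counts, the floor used here, would be a share of cells with a UMI of 2.68% and a level of 0.549 CPM. This limits detection and not the share of cells that express the gene. STRA6 did not pass the filter on low counts in any fit by type or age and was not tested.

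ALDH1A1, which oxidises retinaldehyde to retinoic acid, was detected in 5899 of 5908 cells. In α-cells it ran from 1566 through 2457 to 3149 CPM over 16 monkeys, and in PP-cells from 1381 through 2092 to 2416 CPM over 6. In β-cells it ran from 849 through 1140 to 1483 CPM, and in δ-cells from 594 through 749 to 1108 CPM over 11. All α-cell sums lay above all β- and δ-cell sums, PP-cells overlapped α-cells, and β- and δ-cells overlapped each other. The gene was higher in α-cells by 1.05 ± 0.08 (log2, edgeR adjusted p = 5.1e-15) and in PP-cells by 0.69 ± 0.12 (adjusted p = 7.8e-05), and lower in β-cells (log2 -0.43 ± 0.08, adjusted p = 1.0e-04) and δ-cells (log2 -1.31 ± 0.10, adjusted p = 1.8e-14). Of the 6 pairs, the one not called was PP- against α-cells, where the difference was -0.27 ± 0.13 (log2, adjusted p = 0.21, interval -0.54 to -0.01 before adjustment), a difference that was called with thinned cells (log2 -0.52, adjusted p = 0.034). The order was therefore α with PP, then β, then δ.

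ALDH1A1 was low in cells with immune markers but not in those with stellate markers. The 15 immune-marked cells held 319 CPM, with 0.0101 ALDH1A1 UMIs per GCG UMI, against 0.0309 in α-cells (median of 16 monkeys). The 26 stellate-marked cells held 1023 CPM at a ratio of 0.0362. In β-cells the ratio was 0.0521, above that in α-cells in 15 of 16 monkeys. In δ-cells it was 0.0293, above α-cells in 5 of 11, and in PP-cells 0.0602, above in 6 of 6. GCG chose the types, and typing by GCG itself lowers a ratio to GCG in α-cells. These ratios are therefore given as a description, without a test. Against the α-cell markers other than GCG the ratio was 0.496 in α-cells and 1.84 in β-cells, higher in β-cells in 16 of 16 monkeys, and 0.542 in the immune-marked cells. These markers were listed as α-cell genes, which lowers this ratio too in α-cells. Across the α-cells of a monkey ALDH1A1 did not move with TTR (median r = -0.09, lowest -0.32, highest 0.43), although the 2 genes had the same order over types. Where the highest hormone had to be 4 times the next, PP-cells were too few to enter the fit. There β-cells were set against α- and δ-cells only, which is not the main comparison. On that reference β-cells were not called lower for TTR (log2 -0.18, edgeR adjusted p = 0.15) nor for ALDH1A1 (log2 -0.16, adjusted p = 0.49). The direct comparison of β- with α-cells kept log2 differences of -1.04 for TTR and -1.14 for ALDH1A1. That setting left 384 β-cells, 40 δ-cells and 8 PP-cells.

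**Figure D4:**
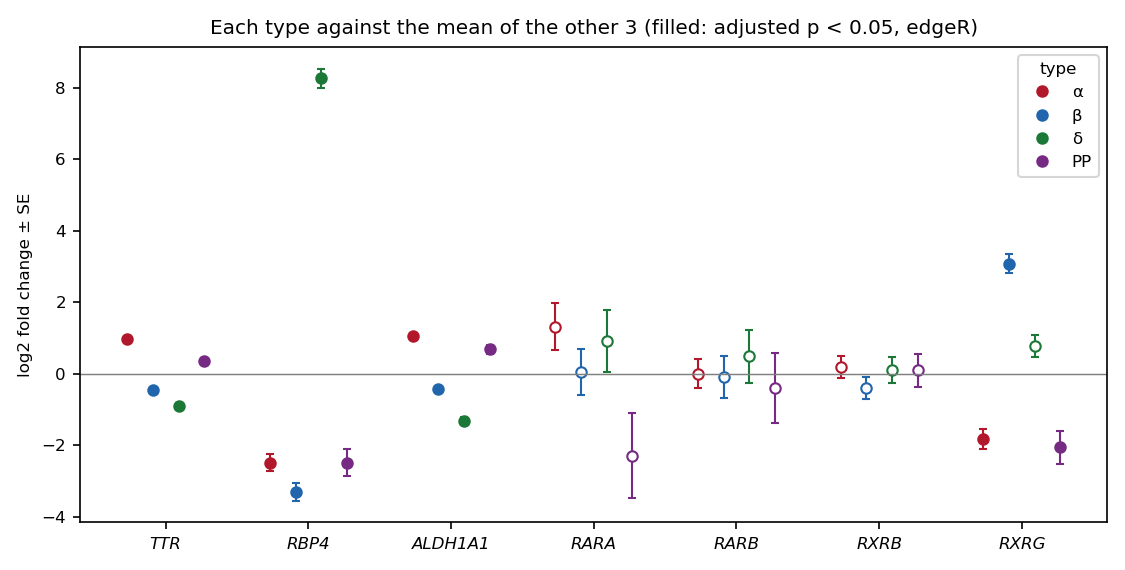
Log2 fold change with its SE of each of the 7 members tested, in each type against the mean of the other 3 (edgeR with monkey as a block; filled points, adjusted p below 0.05). RBP4 in δ-cells reaches 8.27 and RXRG in β-cells 3.09, while RARA, RARB and RXRB have no filled point.

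The retinoic acid receptors were sparse. RARA, the ubiquitous RAR, ran from 1.57 through 4.09 to 10.1 CPM in α-cells and from 0 through 1.96 to 7.97 CPM in β-cells. It had UMIs in 9.15% of α-cells and 8.61% of β-cells. In δ-cells it was at 0 in 6 of 11 monkeys and at 110 CPM in old female 1, where 1 cell held all 78 of the RARA UMIs. In PP-cells RARA was found in 1 of 6 monkeys. RARA was 1.32 ± 0.65 (log2) higher in α-cells than in the other types, which was not called (edgeR adjusted p = 0.15). It was called when old female 2, the 1 monkey with RARA in its PP-cell sum, was left out (log2 3.85, fitted with PP-cells at 0 and no bound), and when cells above the 95th percentile of UMIs were left out (log2 1.89). In δ-cells the difference was 0.92 ± 0.86 (adjusted p = 0.51) and -0.52 without old female 1, and it was called without the monkey term (log2 2.30), as were δ- against β-cells (log2 2.02) and PP- against δ-cells (log2 -3.28). RARB, itself a retinoic acid target gene, ran from 0.112 through 1.98 to 4.06 CPM in α-cells, from 0 through 1.82 to 9.08 in β-cells and from 0 through 1.81 to 40.9 in δ-cells, the last from 10 UMIs in young female 4. Its adjusted p was 0.72 or higher in all 4 comparisons. In the 26 stellate-marked cells RARA was at 27.5 CPM and RARB at 17.2 CPM, found in 5 and 7 cells.

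The RXRs divided into a rare, a broad and a β-cell member. RXRA was found in 70 of 5908 cells, with medians over monkeys of 0.656 CPM in α-cells and 0.630 in β-cells, and it did not pass the filter of the fit by type. RXRB was broad: it ran from 15.6 through 27.6 to 36.6 CPM in α-cells, from 5.30 through 21.5 to 45.2 in β-cells, from 0 through 29.5 to 77.7 in δ-cells and from 4.79 through 33.2 to 51.0 in PP-cells. These ranges overlapped, and RXRB was called in none of the 4 comparisons (adjusted p from 0.35 to 0.93). The intervals of its log2 differences, before adjustment, were -0.39 to 0.78 in α-cells and -0.97 to 0.19 in β-cells.

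RXRG was the receptor that set β-cells apart. It ran from 145 through 185 to 226 CPM in β-cells over 16 monkeys. In α-cells it ran from 4.16 through 15.4 to 24.4 CPM, in δ-cells from 21.6 through 59.9 to 127 CPM and in PP-cells from 0 through 6.42 to 59.2 CPM. Every β-cell sum was above every sum of the other types, and most δ-cell sums were above the highest α-cell sum. RXRG was higher in β-cells by 3.09 ± 0.26 (log2, 8.49-fold, edgeR adjusted p = 4.5e-14) and lower in α-cells (log2 -1.82 ± 0.28, adjusted p = 1.2e-06) and PP-cells (log2 -2.05 ± 0.47, adjusted p = 0.0030). In δ-cells it was 0.79 ± 0.30 higher than in the mean of the others, which was not called by edgeR (adjusted p = 0.067) but was by DESeq2 (log2 0.94) and when old male 2, young female 3 or young male 1 was left out (0.89 to 1.09). The value fell to 0.55 without old female 1 and to 0.08 with thinned cells, neither called. PP-cells were too few to enter the fit with at least 10 cells per sum or where the highest hormone had to be 4 times the next. The δ-cell values there, 0.14 and -0.13, were against α- and β-cells only and were not called. They are thus not the same comparison as the main value. Taken pair by pair, δ-cells were above α-cells by 1.95 ± 0.32 (log2, adjusted p = 7.6e-06) and below β-cells by 1.72 ± 0.33 (log2 -1.72, adjusted p = 9.2e-05), and α- and PP-cells did not differ beyond their error (-0.18 ± 0.48). Where the highest hormone had to be 4 times the next, which left 40 δ-cells, the δ-cell differences from α-cells (log2 1.61, adjusted p = 0.19) and β-cells (log2 -1.86, adjusted p = 0.13) were no longer called. PP-cells lay below δ-cells (log2 -2.13 ± 0.51), a call lost with thinned cells (log2 -1.27, adjusted p = 0.20). Over all members, 20 of the 42 comparisons of a member between 2 types were called (background 17% over the 6 pairs: 25% of genes for β against α, 23.2% for δ against α, 6.61% for PP against α, 19.8% for δ against β, 17.2% for PP against β and 10.3% for PP against δ).

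RXRG per INS UMI was higher in δ-cells than in β-cells. There were 0.00296 RXRG UMIs per INS UMI in β-cells and 0.00898 in δ-cells (medians), higher in δ-cells in 11 of 11 monkeys, against 0.00218 in α-cells, which were above β-cells in 6 of 16. INS chose the β-cells, so the summed β-cell markers other than INS were taken as well. The ratio was then 0.0519 in β-cells, 0.129 in α-cells (above β-cells in 15 of 16 monkeys) and 0.528 in δ-cells (above in 11 of 11). These markers were listed as β-cell genes, with medians of 3560 CPM in β-cells, 103 in α-cells and 93.7 in δ-cells. Either denominator thus favours a lower ratio in β-cells, and no conclusion is drawn from it. Per INS UMI, the 15 immune-marked cells pooled had 0.000207 RXRG UMIs. The 26 stellate-marked cells pooled had 0.00271, with RXRG at 59.1 CPM. Against the β-cell markers other than INS, the pooled ratios were 0.0233 in the immune-marked and 0.0598 in the stellate-marked cells. The δ-cell RXRG came from 41 of 112 cells (36.6%, interval 27.7 to 46.2%). In old female 1, which had the highest δ-cell level, all 90 UMIs were in 1 cell and the β-cell markers other than INS summed to 1459 CPM, against 44.9 to 179 CPM in the δ-cells of the other 10 monkeys. In those 10, RXRG lay between 21.6 and 94.1 CPM. Of all UMIs of the 3 RXRs, RXRG made up 88.8 ± 4.9% in β-cells (mean ± SD, 16 monkeys), 34.4 ± 12.1% in α-cells, 63.4 ± 22.0% in δ-cells (11 monkeys) and 34.2 ± 38.4% in PP-cells (6 monkeys). This share compares molecules captured, and capture may differ between genes.

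Among β-cells RXRG varied widely from cell to cell. It was detected in 86.8% of β-cells (interval 84.8 to 88.6%) and in 29.3% of α-cells. It was also found in 1 of 15 immune-marked, 6 of 47 acinar-marked, 10 of 26 stellate-marked, 5 of 14 endothelial-marked and 3 of 6 ductal-marked cells. With each cell thinned to 10000 UMIs the shares were 65.9% in β-cells and 9.79% in α-cells. In the marked classes, thinning left RXRG in 1 of 12, 4 of 47, 5 of 23, 2 of 14 and 1 of 6 cells, in the same order. Its 5th, 25th, 50th, 75th and 95th percentiles over the 1219 β-cells were 0, 57.1, 153, 256 and 443 CPM. Within a monkey the coefficient of variation over β-cells had a median of 0.80, against 0.31 for TTR and 0.35 for ALDH1A1, part of which is counting error at RXRG's lower level. RXRG did not rise with INS across the β-cells of a monkey (median r = -0.15, lowest -0.39, highest 0.19).

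Of 71 other genes of the retinoid pathway, 60 were in the tables and 40 passed the filter. In α-cells 5 of the 40 were higher and 3 lower than in the other types, in β-cells 6 and 6, in δ-cells 3 and 3, and in PP-cells 3 and 2, so that 20%, 30%, 15% and 12.5% of them were called against the backgrounds of 21.2%, 26.4%, 15.6% and 8.23% of all genes. The median log2 difference of the 40 was 0.32, -0.19, 0.20 and 0.17 in the 4 types.

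Single pathway genes that differed lay at several steps. Of 4 transport and storage genes tested, DGAT1, which can esterify retinol, was lower in δ-cells (log2 -1.81 ± 0.57). It had only 25 UMIs in the δ-cell sums, and its mean of 6.79 ± 14.6 CPM there was near the 8.9 ± 5.5 CPM of β-cells. Of 8 retinol and retinaldehyde enzymes, RDH14 (log2 0.99 ± 0.32) and ADH5 (log2 0.59 ± 0.15) were higher in β-cells, and ADH5 was lower in δ-cells (log2 -0.70 ± 0.18). ADH5 is better known as the glutathione-dependent formaldehyde dehydrogenase. FABP5, a fatty acid carrier that can also deliver retinoic acid, was lower in β-cells (log2 -1.91 ± 0.26, 63.8 ± 46.0 CPM against 228 ± 201 in α-cells). It was called higher in PP-cells (log2 1.05 ± 0.34) against a mean that held the low β-cells. Its mean level in PP-cells, 230 ± 59.0 CPM, was close to that in α-cells and in δ-cells (232 ± 83.7 CPM).

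Among the 9 tested partners of RXR and other retinoid receptors, THRB, a thyroid hormone receptor, was lower in α-cells (log2 -1.50 ± 0.48, 8.50 ± 7.58 CPM against 26.5 ± 11.7 in β-cells). Of 9 coregulators, NCOA3 was higher in β-cells (log2 0.73 ± 0.23), NCOA2 was higher in δ-cells (log2 1.05 ± 0.28), and both were lower in PP-cells (log2 -1.42 ± 0.38 and -1.57 ± 0.43). NCOA3 had a mean of 74.4 ± 18.8 CPM in β-cells and 83.9 ± 56.5 CPM in δ-cells, so β-cells were not its highest type. Of 7 genes known to respond to retinoic acid, MEIS2, a homeobox factor, was lower in α-cells (log2 -1.25 ± 0.14, 90.4 ± 23.4 CPM) and higher in δ-cells (log2 0.71 ± 0.15, 292 ± 119 CPM). RARRES2, which encodes the adipokine chemerin, was higher in α-cells (log2 0.86 ± 0.31) and lower in β-cells (log2 -0.96 ± 0.33). Its mean was 166 ± 95.5 CPM in α-cells but 237 ± 292 CPM in PP-cells, so α-cells were not the highest type. RAI14 was lower in β-cells (log2 -1.78 ± 0.60). Of 3 receptors that can bind transthyretin or its aggregates, AGER was higher in α-cells (log2 1.36 ± 0.46) and PP-cells (log2 2.78 ± 0.69) and lower in β-cells (log2 -1.67 ± 0.55) and δ-cells (log2 -2.47 ± 0.77). AGER had only 7 UMIs in the δ-cell sums and 68 in the PP-cell sums. DDR1, a collagen receptor, was lower in α-cells (log2 -1.29 ± 0.21) and higher in PP-cells (log2 1.34 ± 0.30), and LRP1 was lower in β-cells (log2 -1.16 ± 0.39). All of these passed edgeR's adjusted p of 0.05.

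The genes most like each member over the 49 sums of a monkey and type were found by Pearson's r of log2(CPM + 1), given as a description since the sums share monkeys and the types set much of r. RBP4 was most like SLC10A4 (r = 0.93), HHEX (0.93) and GHSR (0.90). ALDH1A1 was most like GCA (0.89), IRX2 (0.88) and GRIA3 (0.87), and TTR was most like TMEM59L (0.83), SPINT2 (0.83) and CRYBA2 (0.83). RXRG was most like HADH (0.88), SUGP1 (0.86) and APLP2 (0.83). For RXRB these were RANBP3, PUM2 and NECTIN1 (0.75 to 0.78), for RARA MAX, SGTB and TDRKH (0.72 to 0.76), and for RARB FBXL20, RORA and RHBDF1 (0.63 to 0.65). HHEX is a δ-cell and IRX2 an α-cell transcription factor, and both were in the marker lists of these types. Between members, TTR and ALDH1A1 had r = 0.80.

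Old and young monkeys were compared within each type, with sex as a covariate. No member was called in any type, in 24 tests. This was also the background: edgeR called 0% of 12916 genes in α-cells, 0.047% (5 genes) of 10628 in β-cells, and 0% in δ-cells and PP-cells. At an unadjusted p below 0.05, 1 of the 24 member tests passed, RBP4 in β-cells, against 5.54% of all genes in β-cells and 6.86% in α-cells. DESeq2 called 23 genes in α-cells (0.178%), 39 in β-cells (0.367%), 3 in δ-cells (0.0463%) and 2 in PP-cells (0.0305%), with no member among them. None of the 41 other pathway genes tested in α-cells or the 32 in β-cells was called.

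The abundant members overlapped between the ages. TTR in α-cells ran from 60279 through 72013 to 93436 CPM in 8 young monkeys and from 54873 through 73696 to 92365 CPM in 8 old monkeys, with a log2 difference (old minus young) of -0.03 ± 0.16 and an interval of -0.35 to 0.28. In β-cells it ran from 27919 through 35413 to 52044 CPM in the young and from 21211 through 32455 to 51781 CPM in the old (log2 -0.17 ± 0.19). The groups overlapped in both types, though 7 of 8 old monkeys were below the young median in β-cells. ALDH1A1 in α-cells had medians of 2346 CPM in the young and 2716 in the old (log2 0.07 ± 0.14), and in β-cells of 1145 and 1140 CPM (log2 -0.08 ± 0.14). RXRG in β-cells ran from 149 through 176 to 216 CPM in the young and from 145 through 187 to 226 CPM in the old (log2 0.07 ± 0.15, interval -0.22 to 0.36). For these 3 genes in β-cells the intervals exclude a change of 1 log2 unit in either direction.

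RBP4 in β-cells was the member with the lowest unadjusted p for age. In β-cells it ran from 5.53 through 16.3 to 51.9 CPM in the young and from 1.89 through 9.57 to 13.7 CPM in the old, and all 8 old monkeys were below the young median although the ranges overlapped. The log2 difference was -1.19 ± 0.46 (unadjusted p = 0.017, edgeR adjusted p = 0.82), and -0.49 where the highest hormone had to be 4 times the next. On the mean of log2(CPM/10 + 1) over cells, an exact two-sided permutation test over monkeys gave p = 0.011 for this comparison, 1 of 36 computed and the only one below 0.05. In α-cells RBP4 ran from 9.0 through 25.1 to 115 CPM in the young and from 1.18 through 12.3 to 32.6 CPM in the old (log2 -1.18 ± 0.64, adjusted p = 0.77). SST moved alongside: it was lower in the old by a log2 difference of -1.11 ± 0.55 in α-cells and -1.10 ± 0.52 in β-cells. The young libraries held 70 δ-cells and the old 42, and 6 of 32 young libraries against 13 of 32 old ones had none. In libraries without a δ-cell, RBP4 in the other cells had a median of 6.62 CPM in the 6 young and 0.869 CPM in the 13 old. The ranges overlapped, at 0.201 to 12.3 CPM in the young and 0 to 9.49 CPM in the old. Libraries of a monkey are not independent, and young male 4 alone gave 12.3, 6.73 and 6.51 CPM. These values therefore do not compare the ages. The part of δ-cell RNA in the RBP4 difference was not tested.

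**Figure D5:**
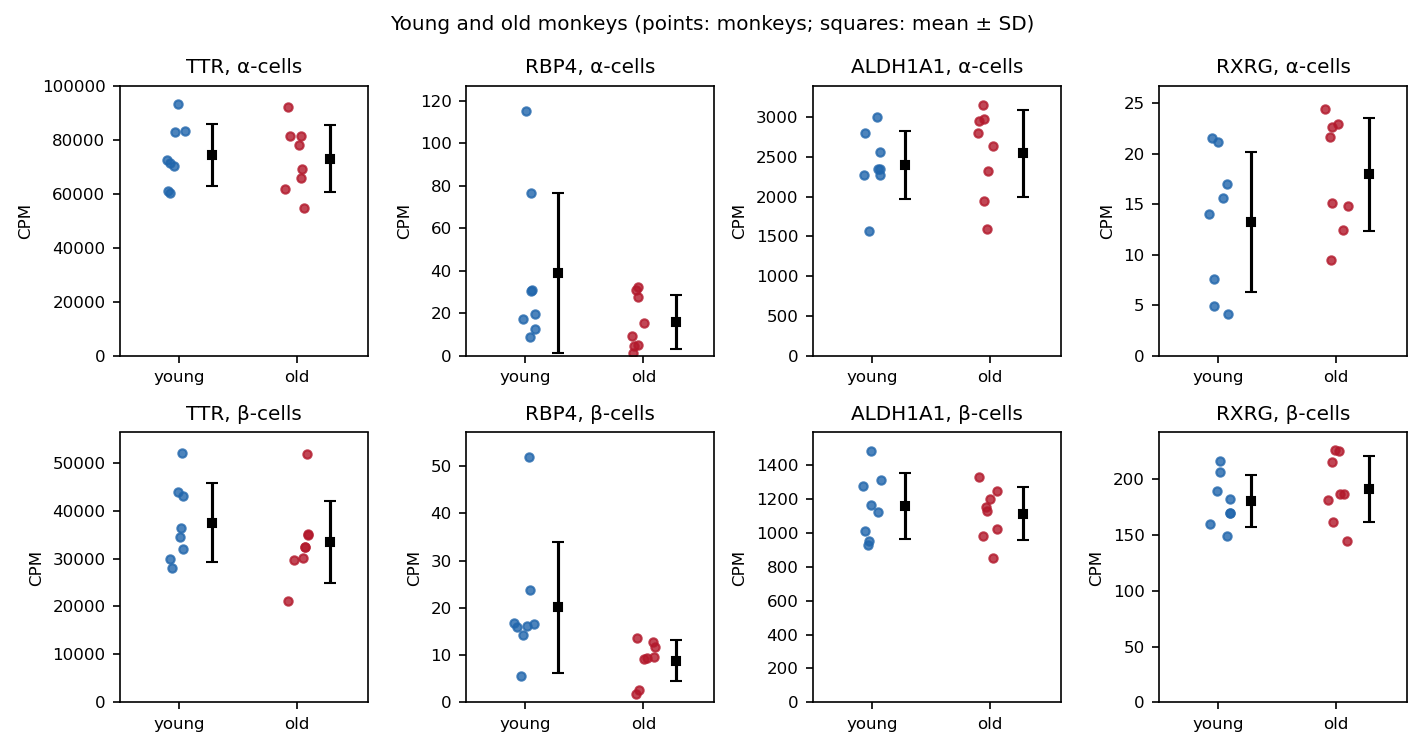
CPM of TTR, RBP4, ALDH1A1 and RXRG in α-cells (top) and β-cells (bottom) of 8 young and 8 old monkeys (points, monkeys; squares with bars, mean ± SD). The age groups overlap in all 8 panels, and RBP4 in β-cells has all 8 old monkeys below the young median of 16.3 CPM.

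In δ-cells themselves RBP4 ran from 2829 through 9503 to 12205 CPM in 7 young monkeys, and was 1966, 5232, 7273 and 10962 CPM in the 4 old. The log2 difference was -0.54 ± 0.34 (unadjusted p = 0.12, not called). It ran from -0.79 without young male 3 to -0.21 without old female 2, and was -1.08 with at least 10 cells per sum, -0.31 with thinned cells and -0.11 without cells above the 95th percentile of UMIs, none of them called. On the mean of log2(CPM/10 + 1) over cells the difference was -2.06 (exact permutation p = 0.18). TTR in δ-cells ran from 17096 through 38491 to 44388 CPM in the young and was 14432, 23991, 31049 and 31768 CPM in the old, all below the young median (log2 -0.53 ± 0.26, unadjusted p = 0.053, and -0.33 without old female 1). GCG was lower in the same old δ-cells by a log2 difference of -0.59 ± 0.28, and SST by -0.53 ± 0.20, neither called. In PP-cells TTR was 47892 and 48676 CPM in the 2 young monkeys and 27437, 46351, 54276 and 56828 CPM in the 4 old, which lay on both sides of the young values. The PP-cell comparison rests on 2 young monkeys.

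The sparse receptors gave wide intervals with age. RARA had log2 differences of 0.49 ± 0.32 in α-cells and -0.37 ± 0.75 in β-cells, RARB of -0.29 ± 0.50 and 0.68 ± 0.77, and RXRA of 0.01 ± 0.60 in α-cells. RXRB had narrower intervals, at 0.01 ± 0.16 in α-cells (interval -0.31 to 0.32) and -0.38 ± 0.34 in β-cells. RXRG in α-cells had a log2 difference of 0.45 ± 0.31, with INS in the same cells at 0.18 ± 0.36.

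Whether age effects differed between females and males was asked in α- and β-cells, and whether they differed between α- and β-cells was asked in all 16 monkeys. No member was called among the 23 interaction tests. edgeR called 0.00774% of genes (1 gene) for sex by age in α-cells, 0% in β-cells and 0% for age by type. The smallest unadjusted p was 0.045 for RXRA by sex in α-cells, on 237 UMIs in all, followed by RBP4 by sex in α-cells (0.056). For age by type the log2 interaction of TTR was -0.15 ± 0.11 and that of RXRG -0.49 ± 0.32.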

How the data were processed

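Per the labels and the study's methods, single islet cells were picked into barcoded plates and sequenced by a modified STRT protocol on 64 libraries. The authors trimmed the reads, used TopHat2 2.0.12 to align them to the Macaca_fascicularis_5.0 build, took unique alignments into HTSeq and kept each UMI once per gene. CASAVA 1.8 is also named in the submitters' processing notes. The deposited values are UMI counts per gene and cell, not normalized. The 95 spike-in rows (5.41% of UMIs) were left out, and monkeys held 21982838 to 35850398 UMIs. Genes are named by the symbols of the files. No positions or sequences are given, since no genome of that build was used here.

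The UMI counts were summed per monkey and type and tested with edgeR 4.0.16 (TMM, filterByExpr, glmQLFit and glmQLFTest, R 4.3.3), with monkey as a block between types, and with sex as a covariate for age. P-values were adjusted by Benjamini-Hochberg over all genes tested, with a threshold of 0.05. CPM were taken over macaque genes. Alternatives were DESeq2 1.42.0, no filter, thinning to 10000 UMIs (45 shallower cells left out), cell filters, other covariates, and each monkey left out. The fits were tested on simulated data. Doublets were treated only by leaving out cells above the 95th percentile of UMIs as an alternative. Cells with at least 3 markers of 1 non-endocrine type and at least 1000 CPM of them were called marked (47 acinar, 26 stellate, 15 immune, 14 endothelial and 6 ductal). The members and gene lists were chosen with earlier results of these data known. All 9 members were named, with pathway genes by the largest called changes (at least 10 CPM in a type, up to 3 a list and direction). A pathway gene that this rule names is not reported here. Monkeys of a sex shared replicate numbers across ages, but same-numbered monkeys did not deviate together (r over 0.1 in 1 of 8 pairs in α-cells and 0 of 8 in β-cells).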

Additional observations from a re-analysis of the deposited data

Results flagged for a closer look

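In 58 groups of 4 to 8 monkeys of 1 age, 13 had a monkey apart from the rest by Dixon's test, where chance gives about 5%. Of these, 10 were sparse genes counted by at most 78 UMIs. In old female 1, δ-cell RARA reached 110 CPM (next 8.70, 78 UMIs), in old female 3 α-cell RARA reached 10.1 CPM (next 5.34, 250 UMIs over 343 cells), and in old female 2 PP-cell RARA reached 4.00 CPM (6 UMIs, the others at 0). In young female 4, δ-cell RARB reached 40.9 CPM (10 UMIs) and δ-cell RXRB 77.7 CPM (19 UMIs), and in young male 2 β-cell RARB reached 4.96 CPM (32 UMIs). RXRA reached 2.13 CPM in δ-cells of young male 3 (1 UMI) and 2.67 CPM in PP-cells of old female 2 (4 UMIs). STRA6 was at 0.457 CPM in the α-cells of young female 1 and 0.694 CPM in those of old female 4 (10 UMIs each), and at 0.107 CPM in the β-cells of young male 4 (1 UMI).

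TTR in the β-cells of old male 1 was at 51781 CPM over 83 cells, where the other 7 old monkeys ran from 21211 to 35089 CPM; the same monkey had the highest TTR of the old group in α-cells. RBP4 in the β-cells of young female 1 was at 51.9 CPM (200 UMIs), where the next young monkey was at 23.8 CPM; the α-cells of this monkey were also highest for RBP4 (115 CPM) and for SST (2266 CPM).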

How the results depend on the processing

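Over 83 recomputed counts of called members, with monkeys left out apart, 82 stayed within 1.5 times the reported count. The exception was β-cells against the other types, where 2 members were called instead of 4 when the highest hormone had to be 4 times the next. That setting left 8 PP-cells, too few to enter the fit, so β-cells were set against α- and δ-cells only. How much of the change came from this altered reference was not tested. Leaving out each monkey in turn kept all 144 such counts within that bound. Single members kept their side of the threshold in 495 of 503 alternatives and 822 of 831 with a monkey left out. Uncalled values changed sign in 46 and 54 of these, among them TTR by age in β-cells (0.32 with the stricter hormone rule), and called values in 0. Without the replicate block (no monkey term) the calls between types were 4 in α-, 4 in β-, 4 in δ- and 3 in PP-cells. With monkeys of the same sex and number as a replicate block, the age comparisons called 0 members in each type, as without it, with RBP4 in δ-cells at -0.96. Over all genes DESeq2 called 1878 in PP-cells against 1062 by edgeR, and for age 39 against 5 in β-cells, 23 against 0 in α-cells, 3 against 0 in δ-cells and 2 against 0 in PP-cells. Depth limits STRA6, RXRA, RARA and RARB in all types, and δ- and PP-cell sums rest on 112 and 74 cells.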
